A study of Mus musculus with 13 samples.

Results

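Metallothioneins Mt1, Mt2 and Mt3, the kinase gene Sgk1 and the stress-response gene Ddit4 were followed in mouse brain across 4 groups of arrays. They were chosen by name, with earlier results of these data known. All probe sets (groups of short probes that read the same transcript) that the array's annotation assigns to these genes alone were taken. These are 5 of 8251 genes with a probe set of their own, and each had 1 probe set: 93573_at for Mt1, 101561_at for Mt2, 95340_at for Mt3, 97890_at for Sgk1 and 103460_at for Ddit4. All 5 passed the filter on dim probe sets, which kept 7453 probe sets.

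RNA came from whole brain hemispheres of wild type mice and of R6/2 mice, a transgenic model of Huntington's disease that carries exon 1 of the human huntingtin gene with an expanded CAG repeat, driven by the human huntingtin promoter. Each genotype was either untreated or given a triple treatment of tacrine (a cholinesterase inhibitor) at 2.7 mg/kg/day from 5 weeks, moclobemide (an inhibitor of monoamine oxidase A) at 10 mg/kg/day and creatine at 1% in the mash. There were 3 untreated wild type, 3 treated wild type, 4 untreated R6/2 and 3 treated R6/2 arrays. The sample descriptions list the drugs for untreated samples too, so treatment was read from the titles. An age at harvest, 8 weeks, is given for untreated wild type array 2 only, and strain background and sex are not stated. The labels do not say that the arrays come from separate animals, so all p-values measure the spread between these samples, which may be partly technical.

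Metallothioneins are small cysteine-rich proteins that bind zinc and copper. Mt1 and Mt2 are made mostly by astrocytes in brain and are induced by zinc, through the metal-sensing factor Mtf1, and by glucocorticoids, whereas Mt3 is a brain-enriched form that responds little to either. Sgk1 encodes a serine/threonine kinase that acts on ion channels and transporters downstream of PI3-kinase, and Ddit4 (also called Redd1) encodes an inhibitor of the growth kinase complex mTORC1. Glucocorticoids, through the glucocorticoid receptor Nr3c1, induce both.

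The sequence before each start site is shown because the metallothioneins and the glucocorticoid-induced genes are textbook targets of short response elements. Each line gives the 250 bases before an annotated start, 5′ to 3′ on the gene's strand, from RefSeq on GRCm38.p6. All 5 genes matched an entry, and Sgk1 had 6 annotated starts, of which the one whose window holds the palindrome is shown. Capitals mark matches to the metal response core (TGCGCNC or TGCACNC, read on both strands) or to the palindromic glucocorticoid element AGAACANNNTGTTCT.
Mt1, chr8:94178839-94179088, plus strand: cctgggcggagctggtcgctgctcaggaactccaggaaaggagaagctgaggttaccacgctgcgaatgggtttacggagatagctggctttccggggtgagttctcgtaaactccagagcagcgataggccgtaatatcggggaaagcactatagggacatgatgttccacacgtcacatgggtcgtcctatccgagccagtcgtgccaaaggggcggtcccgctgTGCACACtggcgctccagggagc
Mt2, chr8:94172368-94172617, plus strand: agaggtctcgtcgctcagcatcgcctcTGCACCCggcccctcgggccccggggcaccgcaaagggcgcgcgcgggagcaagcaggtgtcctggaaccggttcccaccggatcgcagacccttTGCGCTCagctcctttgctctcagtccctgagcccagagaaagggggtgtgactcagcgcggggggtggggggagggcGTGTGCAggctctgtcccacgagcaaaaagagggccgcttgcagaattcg
Mt3, chr8:94152357-94152606, plus strand: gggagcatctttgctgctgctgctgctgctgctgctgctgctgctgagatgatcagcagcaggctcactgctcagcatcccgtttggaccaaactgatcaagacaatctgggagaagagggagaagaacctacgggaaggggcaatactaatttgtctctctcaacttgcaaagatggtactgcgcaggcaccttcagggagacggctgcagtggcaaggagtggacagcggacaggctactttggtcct
Sgk1, chr10:21993640-21993889, plus strand: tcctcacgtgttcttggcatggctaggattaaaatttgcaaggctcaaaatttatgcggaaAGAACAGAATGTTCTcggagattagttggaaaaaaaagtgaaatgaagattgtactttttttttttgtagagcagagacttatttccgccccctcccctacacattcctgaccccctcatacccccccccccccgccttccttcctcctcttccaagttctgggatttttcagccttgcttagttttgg
Ddit4, chr10:59951771-59952020, minus strand: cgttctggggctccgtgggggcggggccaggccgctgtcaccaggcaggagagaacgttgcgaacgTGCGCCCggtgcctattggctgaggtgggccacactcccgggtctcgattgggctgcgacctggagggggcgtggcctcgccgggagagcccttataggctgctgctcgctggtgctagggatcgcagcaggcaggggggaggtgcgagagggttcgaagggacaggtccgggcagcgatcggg

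The Mt2 window held 3 metal cores, at -223 to -217, -128 to -122 and, on the reverse strand, -50 to -44 from the start. The Mt1 window held 1, at -23 to -17, the Ddit4 window held 1, at -184 to -178, and the Mt3 window held 0. Of 32851 such windows, 21.4% held at least 1 metal core and 1.26% held 3 or more, so a single match is common. The Sgk1 window shown was picked from 6 because it holds the palindrome, and the others do not. The match is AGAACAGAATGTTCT at -189 to -175, and only 3 of the 32851 windows held the palindrome (0.00913%). Its arm AGAACA, which every palindrome contains on both strands, was in 16.1% of windows. A match describes these letters and is not a measured binding site. Bases outside these 250 were not searched, so a gene may hold further matches. Mt3, Mt2 and Mt1 lie in that order along chromosome 8, after Mt4 and with the noncoding gene Gm39227 between Mt3 and Mt2.

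The deposited signal medians were 39.6 to 45.1 per array. The first principal component of the kept probe sets accounted for 33.9% of the variance. On it, arrays 3 and 2 of the untreated R6/2 group stood apart, with scores of 45.7 and 25.4 against at most 4.09 elsewhere. The values of the 5 genes, and the counts of listed genes in untreated mice, were therefore also computed without those 2 arrays and are given where a call differs or a value moves much. The tissue is a mixture of cells, so fewer cells of a type and less RNA per cell cannot be told apart.

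**Figure D1:**
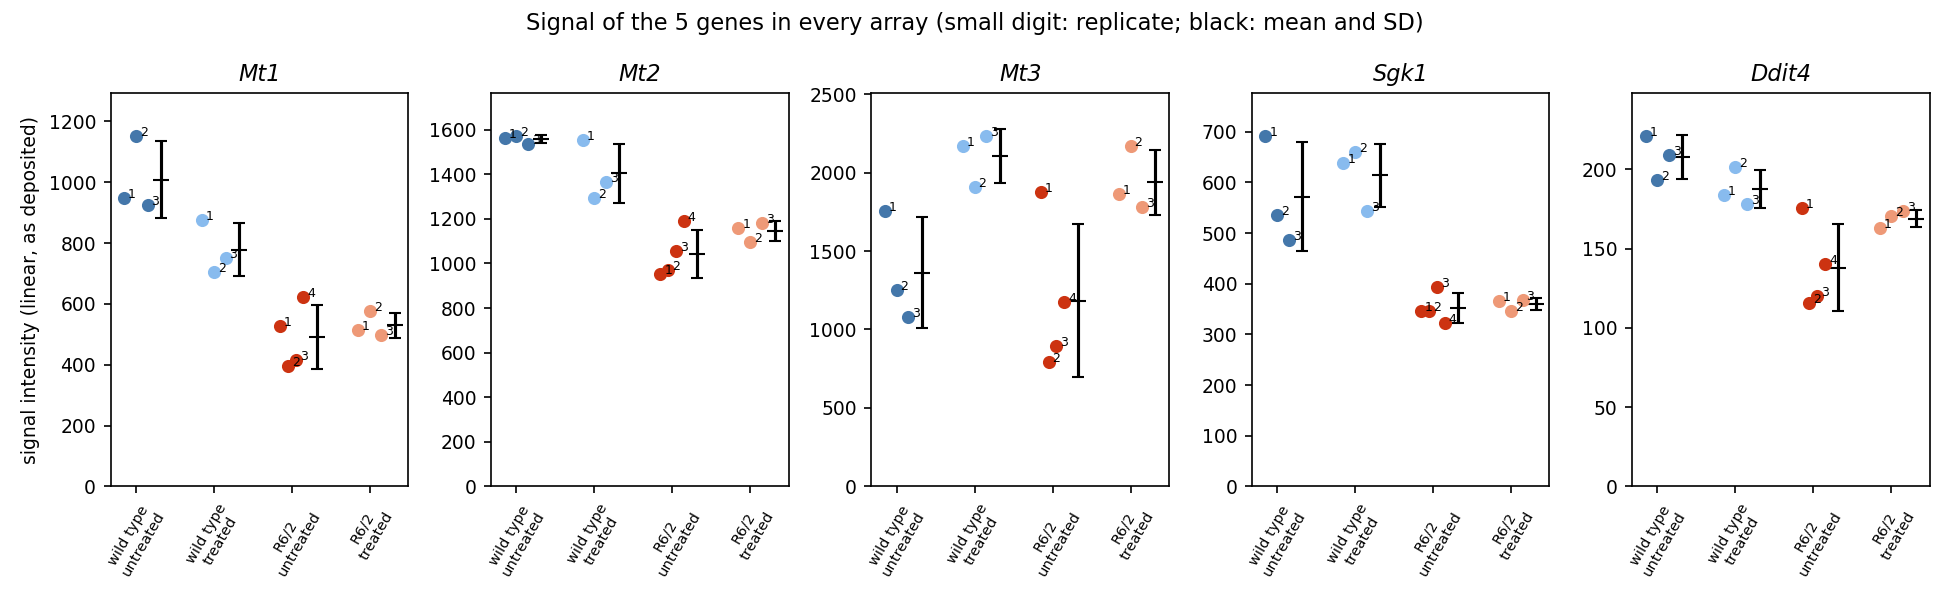
Signal intensity (linear scale, as deposited, from 0) of each gene in every array, by group. Points are arrays with their replicate number, and black marks give the mean and SD. Mt1, Mt2, Sgk1 and Ddit4 show every R6/2 array under every wild type array, while the Mt3 groups overlap by genotype.

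Mt1 and Mt2, the metal- and glucocorticoid-inducible pair, were lower in untreated R6/2 than in untreated wild type brain. Mt1 signal was 946.8, 1153.1 and 925.4 in the untreated wild type arrays and 528.5, 395.6, 415.9 and 621.7 in the untreated R6/2 arrays. The lowest wild type array was thus far above the highest R6/2 array. Means were 1008 ± 126 (SD, n = 3) and 490 ± 105 (SD, n = 4), a log2 change of -1.06 ± 0.154 (SE) with a 95% interval of -1.39 to -0.73 and an adjusted p of 0.00142 in limma (Benjamini-Hochberg over 7453 probe sets). This was the 32nd smallest p of all kept probe sets.

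Mt2 signal was 1563.5, 1573.2 and 1535.5 in untreated wild type brain, a narrow spread: 1.14% of kept probe sets had a smaller SD of log2 signal in that group. In untreated R6/2 brain it was 953.3, 972.2, 1054.9 and 1191.5, again without overlap. The means of 1557 ± 19.6 (SD, n = 3) and 1043 ± 108 (SD, n = 4) gave a log2 change of -0.58 ± 0.103 (SE), with a 95% interval of -0.80 to -0.36 and a limma adjusted p of 0.00519. Mt2 retained 0.667 of its wild type level, and Mt1 0.481.

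Mt3, the brain-enriched form, did not pass the test for genotype. Its signal was 1757.2, 1251 and 1078.1 in untreated wild type brain and 1873.6, 794.1, 896.4 and 1173.2 in untreated R6/2 brain, so the groups overlapped widely. The spread was large: 90.3% of kept probe sets had a smaller SD in untreated wild type arrays and 91.8% in untreated R6/2 arrays. The log2 change was -0.25 ± 0.236 (SE; 95% interval -0.76 to 0.25; limma adjusted p = 0.492). Without untreated R6/2 arrays 2 and 3 its sign turned, to 0.15.

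Sgk1, the kinase gene, was lower in untreated R6/2 brain. Signal was 692.3, 535 and 487.1 in the wild type arrays and 345.9, 346.2, 392.6 and 322.6 in the R6/2 arrays, with no overlap. The means were 571 ± 107 (SD, n = 3) and 352 ± 29.3 (SD, n = 4), and the R6/2 arrays lay closer together than the wild type arrays. The log2 change was -0.69 ± 0.129 (SE; 95% interval -0.96 to -0.41; limma adjusted p = 0.00713).

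Ddit4, the mTORC1 inhibitor, was also lower in untreated R6/2 brain, with a call that was not stable when arrays were left out. Its signal was 221.2, 193.4 and 208.8 in untreated wild type brain and 175.8, 115.5, 120.1 and 140.4 in untreated R6/2 brain. The groups did not overlap, though R6/2 array 1 came near the lowest wild type array. The log2 change was -0.61 ± 0.141 (SE; 95% interval -0.91 to -0.31; limma adjusted p = 0.0174). The call was lost without untreated wild type array 1, 2 or 3 (limma adjusted p = 0.065, 0.0533 and 0.0683). The log2 change was then -0.56, -0.66 and -0.60, while calls over all kept probe sets fell from 887 to 392, 157 and 220. The Ddit4 call was also lost without untreated R6/2 arrays 2 and 3 together (-0.40, limma adjusted p = 0.116).

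In the untreated comparison, 4 of the 5 genes were therefore called lower. The genes and lists were chosen with earlier results of these data known. Shares over all probe sets, here and below, are thus background and not a test of the choice. Over all kept probe sets, 478 of 7453 were called lower (6.41%), 409 were called higher (5.49%), and 914 were lower with no overlap between the groups (12.3%). Without untreated R6/2 arrays 2 and 3, limma called 3 of the 5 genes lower (Mt1, Mt2 and Sgk1), against 1.61% of all kept probe sets lower and 0.577% higher.

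**Figure D2:**
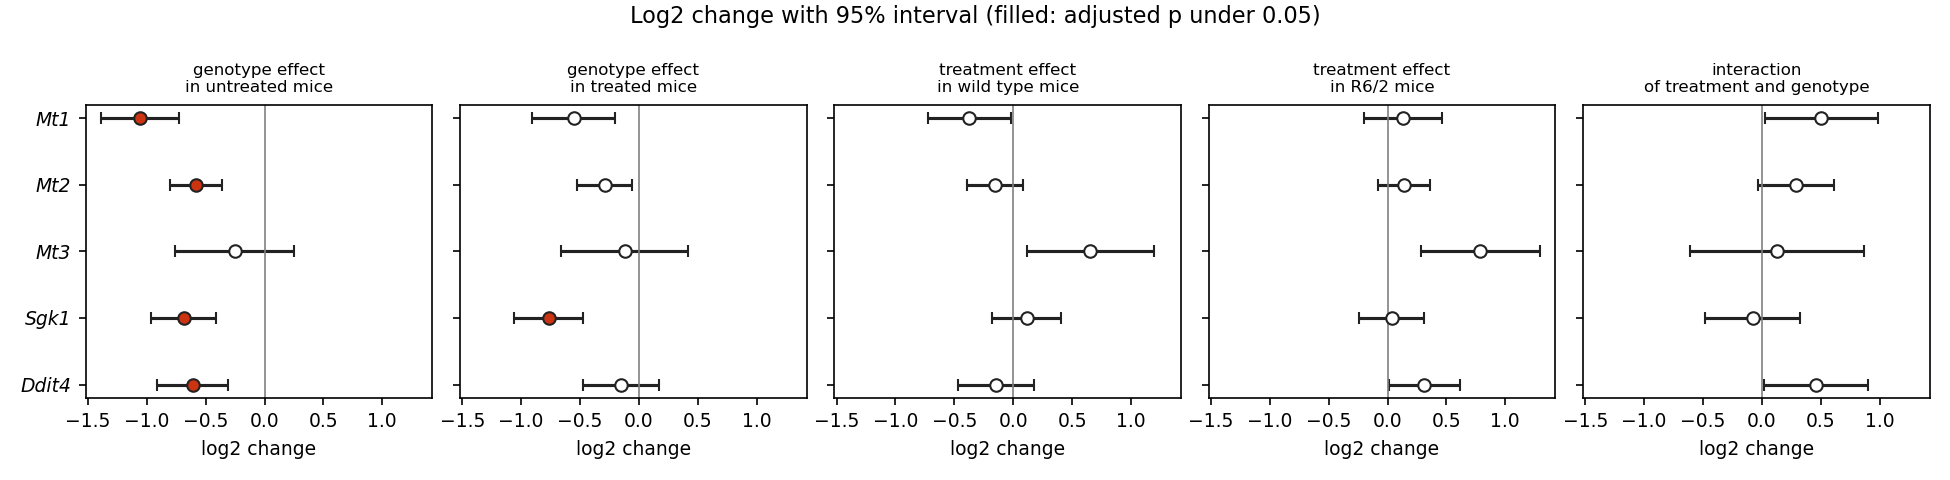
Log2 change of each gene in each comparison, with its 95% interval from limma. Filled points passed an adjusted p of 0.05: Mt1, Mt2, Sgk1 and Ddit4 for genotype in untreated mice, and Sgk1 alone of the 5 for genotype in treated mice.

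Under the triple treatment Sgk1 was again lower in R6/2 brain, and the other genes did not pass the test. Sgk1 signal was 637.3, 660.5 and 544.1 in treated wild type brain and 366.9, 345.5 and 368 in treated R6/2 brain, with no overlap. The log2 change was -0.77 ± 0.138 (SE; 95% interval -1.06 to -0.47; limma adjusted p = 0.0151), the 30th smallest p of all kept probe sets. Its adjusted p rose past the threshold without treated wild type array 1 or 2 (0.0801 and 0.0765 in limma) or treated R6/2 array 1, 2 or 3 (0.0599, 0.0545 and 0.0563 in limma), with a log2 change of -0.85 to -0.71 over the arrays left out.

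Mt1 signal in treated mice was 875.7, 706.4 and 752.4 in wild type and 515.1, 575.8 and 496.8 in R6/2 brain. The arrays did not overlap, but the log2 change of -0.55 ± 0.164 (SE; 95% interval -0.90 to -0.20) had a limma adjusted p of 0.183. Without untreated R6/2 arrays 2 and 3, which enter through the shared estimate of spread, the same change had a limma adjusted p of 0.0356. In that fit 119 of 7453 probe sets were called in treated mice, against 59 with all arrays. For Mt2 the treated arrays read 1552, 1295.1 and 1365.5 in wild type and 1159.3, 1094.8 and 1181.5 in R6/2 brain. These did not overlap either, at a log2 change of -0.29 ± 0.111 (SE; limma adjusted p = 0.389).

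Ddit4 in treated mice read 183.7, 201.2 and 178.1 in wild type and 163, 170.4 and 173.4 in R6/2 brain, a small gap without overlap. Its log2 change was -0.15 ± 0.150 (SE; 95% interval -0.47 to 0.17; limma adjusted p = 0.892). Mt3 overlapped, at 2169.4, 1910 and 2235.3 in wild type against 1861.4, 2168.8 and 1780.1 in R6/2 brain, with a log2 change of -0.12 ± 0.253 (SE; limma adjusted p = 0.964). Thus 1 of the 5 genes was called lower, where 0.711% of all kept probe sets were, and 4 were lower without overlap, where 8.17% of all were.

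**Figure D3:**
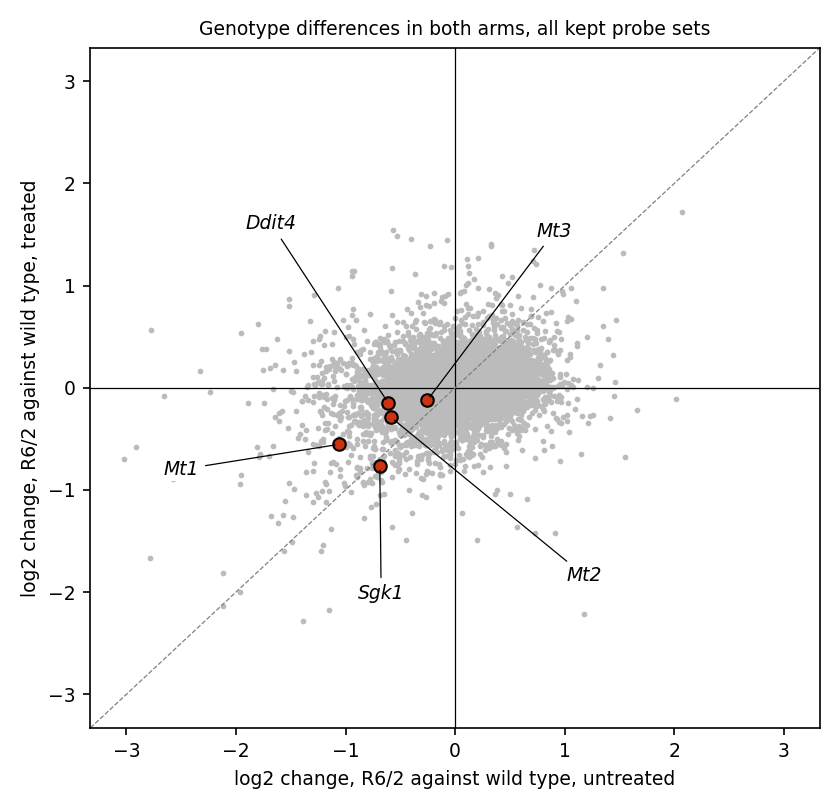
Log2 change of R6/2 against wild type in untreated mice (horizontal) and in treated mice (vertical) for all 7453 kept probe sets (grey) and the 5 genes (red). The dashed line marks equal change. Sgk1 lies close to the line, and Mt1, Mt2 and Ddit4 lie above it, nearer to 0 in the treated comparison.

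Across both arms, Mt1, Mt2, Sgk1 and Ddit4 each separated the genotypes completely. Mt1 ranged from 706.4 to 1153.1 in the 6 wild type arrays and from 395.6 to 621.7 in the 7 R6/2 arrays. The gap was narrowest for Ddit4, between 178.1 in the lowest wild type array and 175.8 in the highest R6/2 array. Of all kept probe sets, 177 were lower in R6/2 with no overlap over the 13 arrays (2.37%).

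The log2 change averaged over both arms was -0.81 ± 0.112 for Mt1, -0.73 ± 0.0943 for Sgk1, -0.44 ± 0.0757 for Mt2, -0.38 ± 0.103 for Ddit4 and -0.19 ± 0.173 for Mt3 (all SE). The limma adjusted p was 0.000731, 0.00036, 0.00323, 0.0401 and 0.545 in that order. So 4 of 5 were called lower, against 4.04% of all kept probe sets. The Ddit4 call was the least stable and was lost without any single wild type array, any single treated R6/2 array, or untreated R6/2 array 2 or 3, with a limma adjusted p of up to 0.102 at log2 changes of -0.41 to -0.34. It was also lost with no filter on dim probe sets (0.0553), with no intensity trend (0.0528) and without untreated R6/2 arrays 2 and 3 together (-0.28, limma adjusted p = 0.088).

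An exact permutation test of genotype within each treatment arm, two-sided over 700 arrangements, gave p = 0.00143 for Mt1, Mt2 and Sgk1. This is the smallest p the design allows. For Ddit4 the exact permutation p was 0.00714 and for Mt3 it was 0.33, in 5 unadjusted tests.

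**Figure D4:**
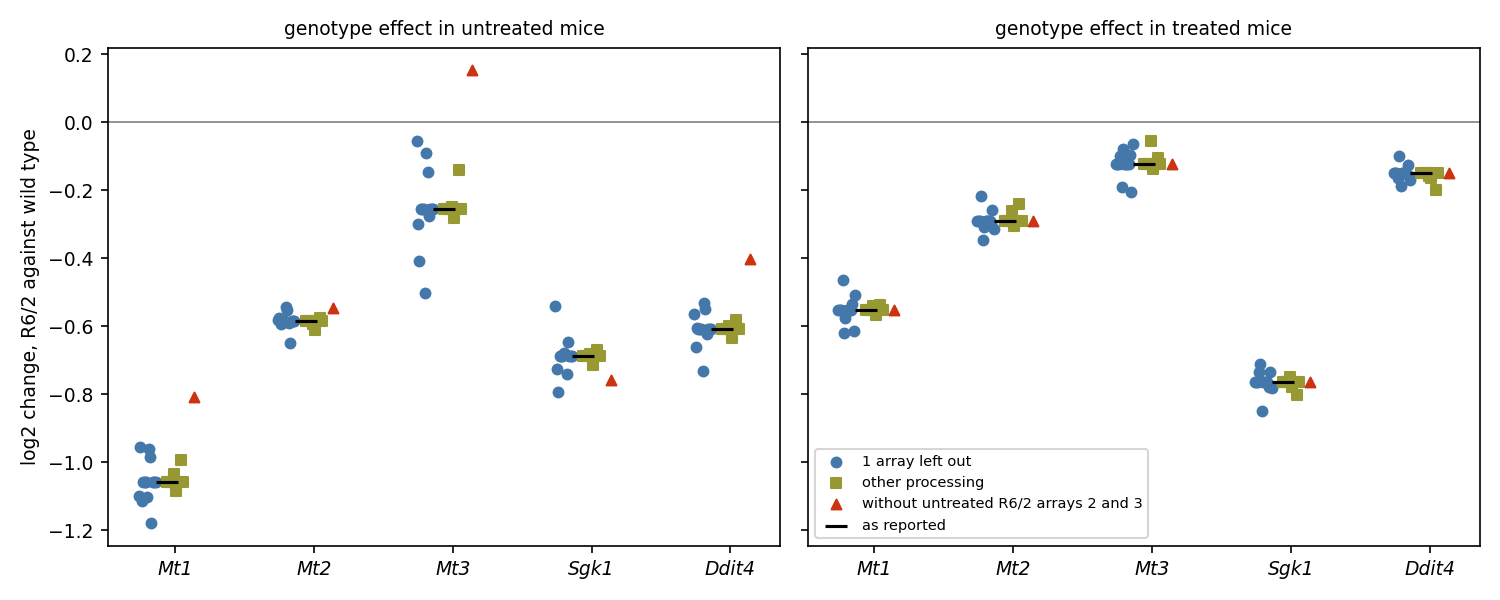
Log2 change of R6/2 against wild type for each gene under the processing alternatives, in untreated (left) and treated mice (right). Marks stand for the reported value, arrays left out singly, the omission of untreated R6/2 arrays 2 and 3, and the other alternatives. Mt1 in untreated mice ranges from -1.18 to -0.81, and Mt3 crosses 0 only when those 2 R6/2 arrays are left out.

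The treatment itself changed none of the 5 genes past the threshold in limma, in either genotype, and Mt3 showed the largest shift. Mean Mt3 signal in R6/2 brain was 1184 ± 487 (SD, n = 4) without treatment and 1937 ± 205 (SD, n = 3) with it. The log2 change was 0.79 ± 0.236 (SE; 95% interval 0.28 to 1.29; limma adjusted p = 0.247). Untreated R6/2 array 1, at 1873.6, overlapped the treated arrays. Without it the change was 1.04 with a limma adjusted p of 0.0185, while without untreated R6/2 arrays 2 and 3 it was 0.38 with a limma adjusted p of 1.0. The size of the shift thus depended on which untreated R6/2 arrays were used. Without untreated R6/2 array 1, limma called 116 of 7453 probe sets for treatment in R6/2 mice, against 0 with all arrays. The gained call was thus not particular to Mt3.

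In wild type brain Mt3 was 1362 ± 353 (SD, n = 3) without treatment and 2105 ± 172 (SD, n = 3) with it. The treated arrays were all above the untreated ones, as were those of 11.4% of all kept probe sets. The log2 change was 0.66 ± 0.253 (SE; 95% interval 0.12 to 1.20; limma adjusted p = 0.402). A two-sided exact permutation test of treatment within genotype, added after the values were seen, gave an average log2 change of 0.72 with p = 0.01 for Mt3, and p = 0.397 for Mt1, 0.919 for Mt2, 0.427 for Sgk1 and 0.46 for Ddit4, all unadjusted.

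Among the other genes, Mt1 in wild type brain was lower in every treated array than in every untreated one, as in 10.4% of all kept probe sets, with a log2 change of -0.37 ± 0.164 (SE; limma adjusted p = 0.452). In R6/2 brain the treatment change was 0.13 ± 0.154 for Mt1, 0.14 ± 0.103 for Mt2, 0.04 ± 0.129 for Sgk1 and 0.31 ± 0.141 for Ddit4 (log2, SE). The limma adjusted p was at least 0.282 for these. In wild type brain the remaining changes were -0.15 ± 0.111 for Mt2, 0.11 ± 0.138 for Sgk1 and -0.15 ± 0.150 for Ddit4.

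Limma called 0 of 7453 probe sets in either treatment comparison (0.0% in R6/2 and 0.0% in wild type mice). At an unadjusted p under 0.05 there were 1262 and 769. The test for a different treatment effect in the 2 genotypes also called 0 (0.0%; 1003 at an unadjusted p under 0.05). Its estimate was 0.50 ± 0.225 for Mt1, 0.46 ± 0.206 for Ddit4, 0.29 ± 0.151 for Mt2, 0.13 ± 0.346 for Mt3 and -0.08 ± 0.189 for Sgk1 (log2, SE), with limma adjusted p-values of 0.352 to 0.879. Without untreated R6/2 arrays 2 and 3 the estimate was 0.25 for Mt1 and 0.25 for Ddit4, and it turned to -0.28 for Mt3. The smaller genotype change of Mt1 and Ddit4 in treated mice was thus not shown to differ from that in untreated mice.

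Ordered by mean, Mt1 signal was highest in untreated wild type brain, then treated wild type, treated R6/2 and untreated R6/2 brain, at 1008, 778, 529 and 490. The last 2 means differed by less than their summed SDs. Mt2 had the same order, at 1557, 1404, 1145 and 1043. Treated wild type and treated R6/2 brain differed by more than their summed SDs, without overlap. Untreated and treated wild type brain differed by barely more (153.2, with SDs of 19.6 and 132.75), and their arrays overlapped. The 2 R6/2 means differed by less. Sgk1 neighbours exceeded their summed SDs only from 571 in untreated wild type to 360 in treated R6/2 brain. For Mt3 the step that exceeded the summed SDs was from 1937 in treated R6/2 to 1362 in untreated wild type brain. The groups of the Sgk1 step and of the Mt3 step differ in both genotype and treatment, so neither step is assigned to 1 of them. Ddit4 went from 207.8 in untreated wild type to 188, 169 and 138, and its neighbours exceeded their summed SDs only between treated wild type and treated R6/2 brain.

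The genes were next compared array by array, after each group's mean was removed. Of 10 pairs, none passed an exact permutation test after Benjamini-Hochberg adjustment over the pairs. Mt3 and Ddit4 had the highest correlation (r = 0.82 over 13 arrays, exact permutation p = 0.0334, adjusted 0.334; rho = 0.56, p = 0.148). It was 0.58 without the 2 arrays farthest from the median of Mt3, untreated R6/2 arrays 2 and 3. Mt1 and Mt2, neighbours on the chromosome, had r = 0.54 (exact permutation p = 0.209, adjusted 0.805) and rho = 0.35 (p = 0.346), and 0.48 without their 2 farthest arrays.

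The probe sets whose signal was most like each gene over the 13 arrays are given as a description, since arrays share their group and the correlations include group differences. For Mt1 they were Wfs1 (r = 0.934), Mt2 (0.928) and the clock gene Per1 (0.928). For Mt2 they were Cox6a2 (0.929), Mt1 (0.928) and Nr4a1 (0.913), and for Sgk1 they were Egr2 (0.947), Sstr2 (0.937) and Rasd1 (0.935). For Ddit4 they were Sncb (0.971), Ddhd1 (0.965) and Camk2a (0.960), genes active in neurons or, for Ddhd1, in lipid metabolism. With group means removed, these correlations were 0.904 to 0.922 for Ddit4, but 0.347 to 0.529 for Sgk1 and 0.286 to 0.538 for Mt2. For Mt1 they were 0.532 to 0.823.

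Mt3 was most like both probe sets of the cytoskeletal gene Actb (r = 0.954 and 0.942) and Fxyd5 (0.916). After group means were removed, the Actb correlations were 0.910 and 0.851. Mean signal of Actb probe set 95705_s_at was 202 in untreated and 437 in treated wild type brain, and 157 in untreated and 488 in treated R6/2 brain. Its treatment change was 2.15 ± 0.504 in R6/2 and 1.17 ± 0.539 in wild type brain (log2, SE; limma adjusted p = 0.246 and 0.481). A change in Actb, often used as a reference transcript, thus ran alongside the Mt3 shift, and its part in it was not tested.

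**Figure D5:**
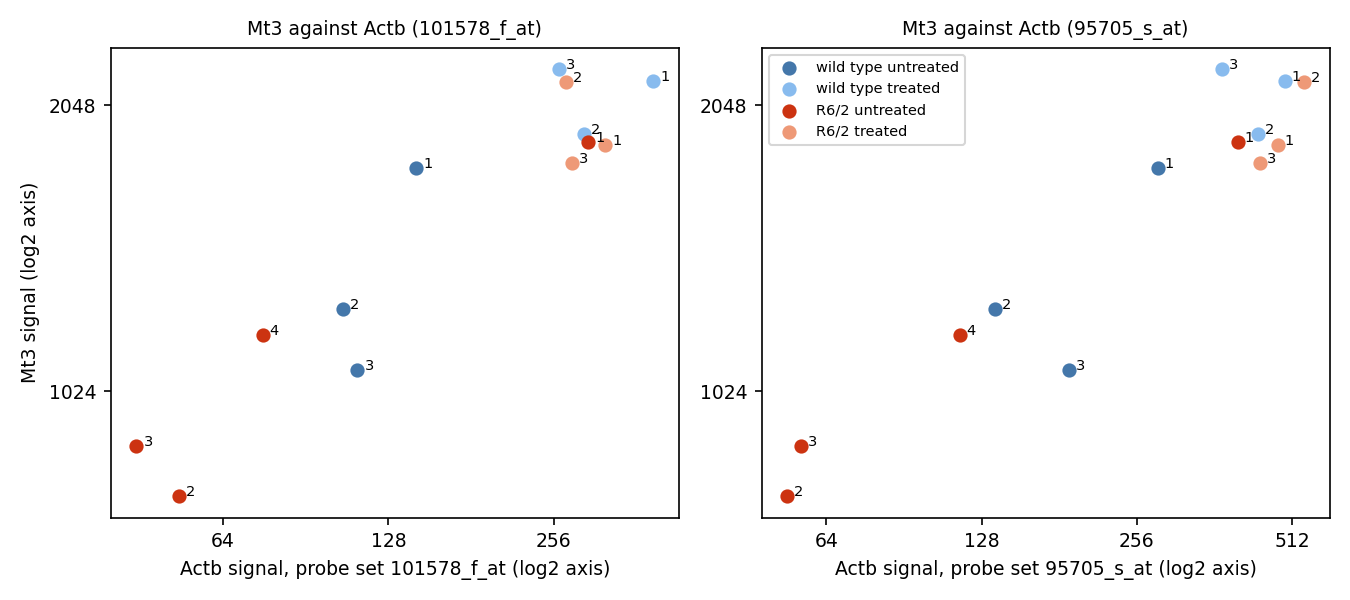
Mt3 signal (vertical) against Actb signal (horizontal) on log2 axes for each of its 2 probe sets, with 1 point per array, coloured by group. Mt3 is higher where Actb is higher, with r of 0.954 and 0.942 over the 13 arrays.

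Glucocorticoid-induced genes other than these, a list of 34 of which 23 were kept, were lower in R6/2 brain in 5 cases and higher in 0 in untreated mice, where 6.41% of all kept probe sets were lower and 5.49% higher. Per1 changed by -1.55 ± 0.17, Rasd1, a Ras-related gene, by -1.13 ± 0.18 and the phosphatase gene Dusp1 by -0.83 ± 0.15 (log2, SE; limma adjusted p = 0.000256, 0.00311 and 0.00511). The list's median log2 change was -0.41, against 0.04 over all kept probe sets. Without untreated R6/2 arrays 2 and 3, limma called 4 lower (Per1, Klf9, Dusp1 and Rasd1), against 1.61% of all, with a median of -0.32. Per1, Rasd1 and Dusp1 are also induced by neuronal activity.

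In treated mice 3 of the 23 were lower, against 0.711% of all kept probe sets, and 0 higher: Rasd1 (-1.38), Per1 (-1.11) and Dusp1 (-0.95), with a list median of -0.28 against 0.03 over all. Fkbp5, a widely used glucocorticoid target, did not pass, at -0.17 in untreated and -0.26 in treated mice (limma adjusted p = 0.399 and 0.639). The receptor gene Nr3c1 was at -0.72 ± 0.26 in untreated mice and 0.19 in treated mice (limma adjusted p = 0.0758 and 0.949). No gene of its list, 12 kept of 19 on receptor, chaperones and hormone supply, passed in either comparison. Averaged over both arms, 1 of the 12 was lower, where 4.04% of all kept probe sets were. It was Hsd11b1, which regenerates active glucocorticoid (-0.61, limma adjusted p = 0.0118). A single call in a list this small is not read as a shift.

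Of 24 kept genes of zinc and copper handling (30 listed), 2 were higher and 0 lower in untreated R6/2 brain, a share near the 5.49% called higher over all. These were Gclc, for glutathione synthesis (0.57, limma adjusted p = 0.0139), and the oxidative stress factor Nfe2l2 (0.71, limma adjusted p = 0.0490), and neither passed without untreated R6/2 arrays 2 and 3 (0.42 and 0.31, limma adjusted p = 0.0851 and 0.369). Mtf1 itself was at -0.15 in untreated and 0.19 in treated mice and passed in neither. In treated mice 0 genes of this list passed, where 59 of all 7453 kept probe sets did, and its median was 0.08 in both comparisons.

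For the mTORC1 pathway and the inducers of Ddit4, 16 of 32 listed genes were kept, and 1 was lower in untreated R6/2 brain, the kinase gene Akt2 (-1.19, limma adjusted p = 0.0101), a share like the 6.41% called lower over all. Akt2 was at -0.73 without untreated R6/2 arrays 2 and 3 (limma adjusted p = 0.047). Of 12 kept activators and substrates of Sgk1 (24 listed), 1 was called higher and 2 lower, where 5.49% of all kept probe sets were higher and 6.41% lower. The list median was -0.17, against 0.04 over all. Pik3ca was higher (1.05, limma adjusted p = 0.0209). Its partner Pik3r1 (-0.79, limma adjusted p = 0.0230) and Ndrg2, whose product is an Sgk1 substrate (-0.46, limma adjusted p = 0.0200), were lower. None of these 3 was called by limma without untreated R6/2 arrays 2 and 3 (adjusted p = 0.164, 0.181 and 0.0778). In treated mice 0 genes of either list passed, where 59 of all 7453 kept probe sets did.

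Markers of cell types that can express these genes also moved with genotype in untreated mice. Of 11 kept astrocyte markers (18 listed), 4 were lower, against 6.41% of all kept probe sets, and 0 higher, with a median log2 change of -0.24. The lowest p-values were those of Ntsr2 (-0.66), Apoe (-0.45) and Aldoc (-0.44), with limma adjusted p of 0.0142, 0.0410 and 0.0423. In limma 0 passed without untreated R6/2 arrays 2 and 3, at a median of -0.39. The summed signal of the 12 with a probe set was 11329.9 to 12604.3 in untreated wild type and 9364.2 to 10871.8 in untreated R6/2 brain. In treated mice 0 passed, where 0.711% of all kept probe sets were called lower, and the median was -0.19. The sums in treated mice overlapped, at 11703.4 to 13136.5 in wild type and 9335.5 to 12085.8 in R6/2 brain.

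Oligodendrocyte markers, of a cell type in which Sgk1 is also expressed, were lower in 4 of 8 kept genes (10 listed) in untreated R6/2 brain, against 6.41% of all kept probe sets, and higher in 0, with a median of -0.54. They included the myelin lipid enzyme gene Ugt8a (-1.37) and the myelin protein genes Mobp (-0.73) and Mag (-0.87), at limma adjusted p of 0.0152, 0.0245 and 0.0247. Ugt8a and Mobp passed without untreated R6/2 arrays 2 and 3 too (limma adjusted p = 0.0289 and 0.0353). The sum over the 9 with a probe set was 4228.3 to 4676.4 in untreated wild type and 2506.9 to 3247.5 in untreated R6/2 brain, and 4121.8 to 4893.7 and 2812.4 to 3808.8 in treated mice. For neurons 3 of 11 kept markers (13 listed) were lower and 0 higher, namely Syp, Map2 and Eno2 (-1.29, -0.87 and -0.37; limma adjusted p = 0.0037, 0.0207 and 0.0343), of which Syp alone passed without those 2 arrays (-0.94, limma adjusted p = 0.00292). The neuronal markers had sums of 11978.1 to 12391.8 and 9868.9 to 11162.8 in untreated wild type and R6/2 brain. In treated mice 0 markers of these types passed, where 0.711% of all kept probe sets were called lower. The oligodendrocyte median was then -0.49 and the neuronal median -0.15. The neuronal sums in treated mice did not overlap, at 11461.9 to 12133.8 in wild type and 10532.2 to 11271.9 in R6/2 brain.

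Of 9 kept endothelial markers 0 passed in limma, with a median log2 change of 0.17 in untreated and 0.20 in treated mice. The sums over the 10 with a probe set overlapped, at 630 to 731.7 in untreated wild type and 596.6 to 672.2 in untreated R6/2 brain. Among 8 kept microglial markers Ctss was higher (0.72, limma adjusted p = 0.0198), among 3 of red blood cells Alas2 was lower (-1.52, limma adjusted p = 0.0302), and 0 of 3 of choroid plexus passed. Over all kept probe sets 5.49% were called higher and 6.41% lower, so 1 call in a list this small is not read as a shift. Neither Ctss nor Alas2 passed without untreated R6/2 arrays 2 and 3 (limma adjusted p = 0.146 and 0.14). No marker was at 0 in all arrays. The part of the marker differences in the changes of Mt1, Mt2, Sgk1 and Ddit4 was not tested.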

How the data were processed

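The deposited intensities of the 13 Affymetrix MG-U74Av2 arrays are on a linear scale, with trimmed means (2% off each end) of 100.047 to 100.128. The software that made them is not given in the sources used here. Array medians were within 6.73% of their mean (limit 10%), so values were used as deposited. Values under 3.1, the 10th percentile, were raised to 3.1 before the log2 transform. The 66 controls among 12488 probe sets were dropped, and the 7453 of 12422 others at or above the 40th percentile of mean log2 (a signal of 24.9) were kept. The annotation gave 10833 of the 12422 a single gene, 396 several and 1193 none.

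Group means were fitted with limma 3.58.1 in R 4.3.3 over all arrays, with an intensity trend, and p-values were adjusted by Benjamini-Hochberg over 7453 probe sets at 0.05. The fit was tested on simulated data. Single values were tested by exact permutation over every arrangement (numpy 2.4.6), and ranks for rho were taken with scipy 1.17.1. The number of arrays limits the precision. Alternatives changed the floor, filter, normalization, trend, weights and arrays used. The genes and lists were chosen with earlier results of these data known. Every probe set of the 5 genes was named, with at most 3 passing genes per list (smallest p), background genes of the pathway, and the 3 most alike probe sets per gene. The lot number in the description of treated R6/2 array 1 differs from its title and repeats that of untreated R6/2 array 4.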

Additional observations from a re-analysis of the deposited data

How the results depend on the processing

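Over the alternatives, the log2 change in untreated mice was -1.18 to -0.81 for Mt1, -0.65 to -0.54 for Mt2 and -0.79 to -0.54 for Sgk1, all past the threshold (limma adjusted p at most 0.0214, 0.0368 and 0.0447). Ddit4 lost its call with only the arrays compared (-0.61, limma adjusted p = 0.0677) and without untreated R6/2 arrays 2 and 3 (-0.40), and ranged from -0.73 to -0.53 with arrays left out singly. Without those 2 arrays, Mt3 turned to 0.15 in untreated mice, 0.016 averaged over treatment and -0.28 for the interaction, the Mt3 treatment change in R6/2 mice was 0.38, and Mt1 turned to -0.12 for treatment in R6/2 mice. Mt1 in treated mice then passed (-0.55), making 2 called genes instead of 1, while calls over all 7453 probe sets rose from 59 to 119. With arrays left out singly, the called genes in treated mice numbered 0 to 1 (Sgk1 from -0.85 to -0.71), and those for treatment in R6/2 mice 0 to 1. The Sgk1 treatment change in R6/2 mice turned to -0.0050 at a common median and ran from -0.00375 to 0.091 with arrays left out singly. The interaction then ran from -0.068 to 0.38 for Mt3 and from -0.22 to 0.029 for Sgk1. Correlations turned to -0.13 (Mt1 and Mt3) and -0.67 (Mt1 and Ddit4) without the 2 arrays, and to 0.20, 0.17 and 0.094 for Mt2 with Mt3, Sgk1 and Ddit4 under quantile normalization. The cause was not tested. Probe sets called numbered 887 in untreated mice (157 to 1308 over the alternatives) and 59 in treated mice (20 to 208). Listed genes called in untreated mice were recounted without the 2 arrays after the values were seen. No paired analysis was possible because the labels give no replicate number shared between groups.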

Other observations

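The ratio of Mt1 to Mt2 signal, compared only between arrays because the 2 probe sets differ in response, was 0.606, 0.733 and 0.603 in untreated wild type and 0.564, 0.545 and 0.551 in treated wild type brain. In R6/2 brain it was 0.554, 0.407, 0.394 and 0.522 untreated and 0.444, 0.526 and 0.42 treated. The genotypes overlapped in untreated R6/2 array 1 alone. The average log2 difference by genotype was -0.37 (two-sided exact permutation p = 0.00286), in a test added after the values were seen, and by treatment it was -0.11 (exact permutation p = 0.279).

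In untreated R6/2 arrays 1 and 4 alone, mean signal was 575 for Mt1, 1072 for Mt2, 1523 for Mt3, 334 for Sgk1 and 158 for Ddit4. The 66 control rows were proportional, at a ratio of 1.2 within a tolerance of 0.05, in 3 pairs of arrays: untreated R6/2 1 and 4, untreated R6/2 2 and treated R6/2 1, and untreated R6/2 3 and treated R6/2 3. Their gene probe sets were not identical and correlated at 0.964, 0.933 and 0.899.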
